A study of Mus musculus with 16 samples.

Results

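Mouse mammary tumors that had been given focal radiation alone were compared, gene by gene, with tumors that had been given radiation together with a TGF beta inhibitor and an antibody to PD-L1. The comparison used 6 of the 16 libraries of the series, 3 tumors labelled "RT" and 3 labelled "IPW-5371 + RT + anti-PD-L1", called the RT and the triple tumors here. All were Trp53 null mammary carcinomas of 1 transplant line (family F) growing in the mammary glands of immunocompetent BALB/cJ females of 8 to 10 weeks. Treatment began at a tumor volume of 65 to 100 mm3, and tumors were frozen 7 days after treatment. Both groups received a single dose of 10 Gy to the tumor. The triple group also received daily doses of IPW-5371 (20 mg/kg), a compound that blocks the TGF beta pathway, and weekly doses of an antibody to PD-L1 (10 mg/kg), by intraperitoneal injection that began before irradiation. Whether the RT mice received control immunoglobulin was not given in the sources used here. The groups therefore differ by both agents, and the part of each cannot be told apart from these 6 tumors. The 9 other tumors (3 sham, 3 given the inhibitor alone, labelled TGFbi here, and 3 given inhibitor plus radiation, TGFbi+RT) entered the same statistical fit. All tumors descend from 1 tumor family, which limits what they stand for.

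TGF beta is a secreted cytokine that is stored in the matrix in a latent form, can be activated by radiation, and signals through the receptors Tgfbr1 and Tgfbr2 to Smad2 and Smad3. In tumors it is known for driving matrix production by fibroblasts and for restraining T cells and antigen-presenting cells. PD-L1, encoded by Cd274, binds PD-1 (Pdcd1) on T cells and dampens them; its gene is itself induced by interferon gamma from activated T cells and NK cells. Interferon gamma also induces Ciita, the master regulator of the MHC class II genes, whose products present peptides to CD4+ T cells.

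The MHC class II promoters are known for a shared module of short boxes that a complex with Ciita occupies. The last of these boxes, the Y box, carries the letters TGATTGG and is bound by the factor NF-Y. These promoters are shown because class II genes were higher as a group in the triple tumors. Of the 10 genes on the class II list, 7 had a promoter in the RefSeq table (GRCm38.p6, C57BL/6J reference, 250 bases before to 50 bases after the gene start), and 6 of the 7 held TGATTGG on the strand of the gene: H2-Aa, H2-Eb1, H2-DMb1, H2-DMb2, H2-Oa and H2-Ob. Neither of the promoters listed for H2-DMa held it on either strand. Over all 32851 promoters of this length, 7.82% held the letters on either strand. The stretches around the box in 4 of the genes are given 5′ to 3′ on the strand of the gene, with the Y box in capitals; a match is a description of the letters and was not tested as a binding site.
H2-Aa, minus strand, chr17:34287847-34287918: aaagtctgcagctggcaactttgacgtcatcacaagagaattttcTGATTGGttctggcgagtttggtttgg
H2-Eb1, plus strand, chr17:34305761-34305832: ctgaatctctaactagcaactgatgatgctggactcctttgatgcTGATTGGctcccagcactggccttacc
H2-DMb1, plus strand, chr17:34153083-34153154: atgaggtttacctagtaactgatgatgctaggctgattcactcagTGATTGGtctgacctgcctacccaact
H2-DMb2, plus strand, chr17:34145112-34145183: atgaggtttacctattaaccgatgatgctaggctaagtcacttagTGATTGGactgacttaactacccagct
The box began 50 bases before the gene start in H2-Aa, 61 in H2-Eb1, 63 in H2-DMb1 and 92 in H2-DMb2.

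The libraries held 12157071 to 15503134 counts in the 6 tumors, and 16017 genes passed the low-count filter. Mitochondrial transcripts took 2.57% to 2.98% of the counts in triple tumors and 2.48% to 3.07% in RT tumors. On the first principal component of the 6 tumors, which held 61.3% of their variance, triple replicate 2 stood at 102.6, the other triple tumors at -6.96 and 19.4, and the RT tumors at 21.7, -57.6 and -79.2, so triple replicate 2 stood apart from the rest and RT replicate 1 lay among the triple tumors. Triple replicate 1 carries the library code A2301 and the other 5 tumors the code A2304; what the code marks is not stated. Basal keratin Krt5 was counted at 351 to 438 CPM (CPM is the share of a gene in the library's counts, scaled to a common total with TMM factors) in all 6 tumors. Trp53 itself gave 64.0 to 110 CPM in the triple and 74.2 to 79.6 CPM in the RT tumors, and the counts do not say which exons they come from, so they do not check the genotype.

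At an adjusted p under 0.05, edgeR's quasi-likelihood test called 0 of 16017 genes different between triple and RT tumors (0%), and its smallest adjusted p was 0.360. At an unadjusted p under 0.05 it passed 925 genes, 5.78% of those tested, of which 745 (4.65%) were higher and 180 (1.12%) lower in the triple tumors. limma-voom called 0 genes as well, with 784 at an unadjusted p under 0.05, whereas DESeq2 called 3: Timd4 and Vegfd higher and Eya2 lower. Levels in the 3 triple tumors lay wholly above those in the 3 RT tumors for 620 genes (3.87%) and wholly below for 677 genes (4.23%). The median log2 fold change over all genes was -0.0043, and 49.4% of genes had a value above 0. Triple replicate 2 was the highest of the 6 tumors in 619 of the 745 genes with an unadjusted p under 0.05 and a higher triple mean (83.1%), against 31.5% of all genes. The choice of genes with a higher triple mean favors a triple tumor as the highest, so the 2 shares are not alike. Among the 620 genes higher without overlap, where the highest tumor is always a triple tumor, the share was 60.8%. The number at an unadjusted p under 0.05 moved with single tumors: it was 315 without triple replicate 2, 359 without RT replicate 3, 381 without RT replicate 2, 2087 without triple replicate 1 and 2077 without RT replicate 1; among the A2304 libraries alone it was 1670. No gene is therefore called changed, and the levels and differences given next describe these tumors. The 3 tumors of a group were separate mice, so the spread includes differences between mice. Differences in how the samples were taken or handled, or in the library code within the triple group, cannot be told apart from these.

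Timd4 led the genes that were higher. It encodes TIM-4, a receptor for phosphatidylserine on apoptotic cells that marks resident macrophages, and lies at chr11:46810799-46844333 (GRCm38, plus strand). Its level was 7.14, 9.87 and 6.16 CPM in triple replicates 1, 2 and 3 and 0.437, 0 and 0.211 CPM in RT replicates 1, 2 and 3. Every triple tumor was far above every RT tumor, and the means were 7.72 ± 1.92 and 0.216 ± 0.218 CPM (SD, n = 3 each). The log2 fold change was 5.08 ± 0.78 (SE; edgeR adjusted p = 0.360, DESeq2 adjusted p = 9.74e-08, limma-voom adjusted p = 0.497). Leaving out any 1 of the 6 tumors left it between 4.52 and 6.08, and the A2304 libraries alone gave 5.13. In the other groups Timd4 was counted at 0.259 to 0.477 CPM (Sham), 0.440 to 0.970 CPM (TGFbi) and 0.893 to 3.92 CPM (TGFbi+RT), so all 3 triple tumors were above the 12 other tumors.

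Vegfd (chrX:164373548-164402647, plus strand), a growth factor for lymphatic vessels, was counted at 6.47, 14.2 and 11.7 CPM in the triple and 3.49, 1.36 and 2.11 CPM in the RT tumors. The groups did not overlap, and the log2 fold change was 2.21 ± 0.41 (edgeR adjusted p = 0.755, DESeq2 adjusted p = 0.00188). Levels of 7.34 to 9.46 CPM in TGFbi and 5.95 to 13.9 CPM in TGFbi+RT tumors were close to those of the triple tumors, against 2.62 to 3.89 CPM in Sham. Triple and TGFbi+RT tumors differed in Vegfd by 0.24 ± 0.39 log2 units (edgeR unadjusted p = 0.558).

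The other leading higher genes included Ccl22, Tnfrsf4, Cfb, Pla2g2d and Ifi205. Ccl22, a dendritic cell chemokine that attracts regulatory T cells, was counted at 9.40, 16.8 and 0.760 CPM in the triple and 0.748, 0.204 and 0.141 CPM in the RT tumors; triple replicate 3 and RT replicate 1 were almost level. Tnfrsf4, which encodes the T cell costimulator OX40, gave 4.13, 8.92 and 1.10 CPM against 1.06, 0.814 and 0.632 CPM. Cfb, complement factor B, gave 31.7, 292 and 49.6 CPM against 24.7, 11.7 and 8.85 CPM, with triple replicate 2 far above the others. Pla2g2d, a secreted phospholipase of dendritic cells and macrophages, gave 6.80, 19.2 and 1.86 CPM against 1.25, 0.136 and 0 CPM. Ifi205, an interferon-induced gene with near-identical relatives among which reads may be split, gave 5.94, 34.3 and 10.2 CPM against 3.24, 0.271 and 0.141 CPM. Their log2 fold changes were 4.57 ± 1.21 (Ccl22), 2.49 ± 0.66 (Tnfrsf4), 3.04 ± 0.82 (Cfb), 4.28 ± 1.21 (Pla2g2d) and 3.76 ± 1.02 (Ifi205). Without triple replicate 2 that of Cfb was 1.43 and that of Tnfrsf4 1.64, and without RT replicate 1 that of Pla2g2d was 6.88 and that of Ifi205 6.26. The fatty acid receptor gene Ffar4 (0.534, 0.409 and 4.22 CPM against 0.312, 0.136 and 0.211 CPM) was high in triple replicate 3 alone. Slc35d2, a nucleotide sugar transporter (3.73, 7.49 and 5.74 CPM against 2.68, 2.24 and 2.67 CPM), and Cep295nl (2.00, 3.40 and 2.45 CPM against 1.50, 1.15 and 0.843 CPM) completed the set beside H2-Ea and H2-DMb2, with log2 fold changes of 1.16 ± 0.34 and 1.16 ± 0.33.

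Eya2 led the genes that were lower. It encodes a transcriptional cofactor with phosphatase activity and lies at chr2:165655298-165771631 (plus strand). The triple tumors were tightly grouped at 43.4, 42.0 and 44.4 CPM, and the RT tumors stood at 75.5, 91.2 and 97.9 CPM. The means were 43.3 ± 1.2 and 88.2 ± 11.5 CPM (SD, n = 3 each), with a log2 fold change of -1.03 ± 0.18 (edgeR adjusted p = 0.624, DESeq2 adjusted p = 0.00188). The value stayed between -1.15 and -0.95 when any 1 of the 6 tumors was left out. Sham and TGFbi tumors held 61.6 to 77.3 and 64.9 to 94.5 CPM of Eya2, and TGFbi+RT tumors 41.1 to 63.2 CPM.

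Nrep, a gene named for neuronal regeneration, was almost constant within each group, at 56.6, 51.5 and 49.6 CPM in the triple and 90.9, 88.0 and 88.2 CPM in the RT tumors. Its log2 fold change was -0.76 ± 0.16 (edgeR adjusted p = 0.812, DESeq2 adjusted p = 0.0547). TGFbi and TGFbi+RT tumors, at 46.4 to 54.0 and 37.2 to 54.6 CPM of Nrep, were below all RT tumors too. The Sham tumors were also below all RT tumors, so a level below RT was not particular to groups given the inhibitor. The tetraspanin genes Tspan18 (30.4, 17.6 and 35.0 CPM against 60.2, 56.7 and 56.8 CPM) and Tspan7 (116, 73.1 and 92.4 CPM against 174, 158 and 168 CPM) had log2 fold changes of -1.07 ± 0.30 and -0.83 ± 0.26. Ndp, which encodes norrin, a ligand of the Wnt pathway, gave 1.80, 1.97 and 2.03 CPM against 2.81, 4.95 and 4.64 CPM, with a log2 fold change of -1.09 ± 0.27. Rassf10 (2.20, 2.66 and 1.60 CPM against 6.24, 3.12 and 5.97 CPM), Ovol2, a repressor of mesenchymal genes (2.53, 1.84 and 2.20 CPM against 2.56, 4.75 and 4.92 CPM), and the homeobox gene Irx2 (35.6, 40.2 and 38.8 CPM against 46.0, 57.1 and 67.1 CPM) were lower in every triple tumor as well, as the choice of genes without overlap requires. In Ovol2 triple replicate 1 and RT replicate 1 were almost level. The set ended with Acot1, Mvb12b, Kif3c and Ermp1, at log2 fold changes of -0.83, -0.69, -0.67 and -0.61; Acot1 has a near-identical neighbour with which it may share reads. Triple replicate 2 was the most extreme triple tumor in 11 of the 12 leading higher genes and in 7 of the 12 leading lower genes.

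**Figure D1:**
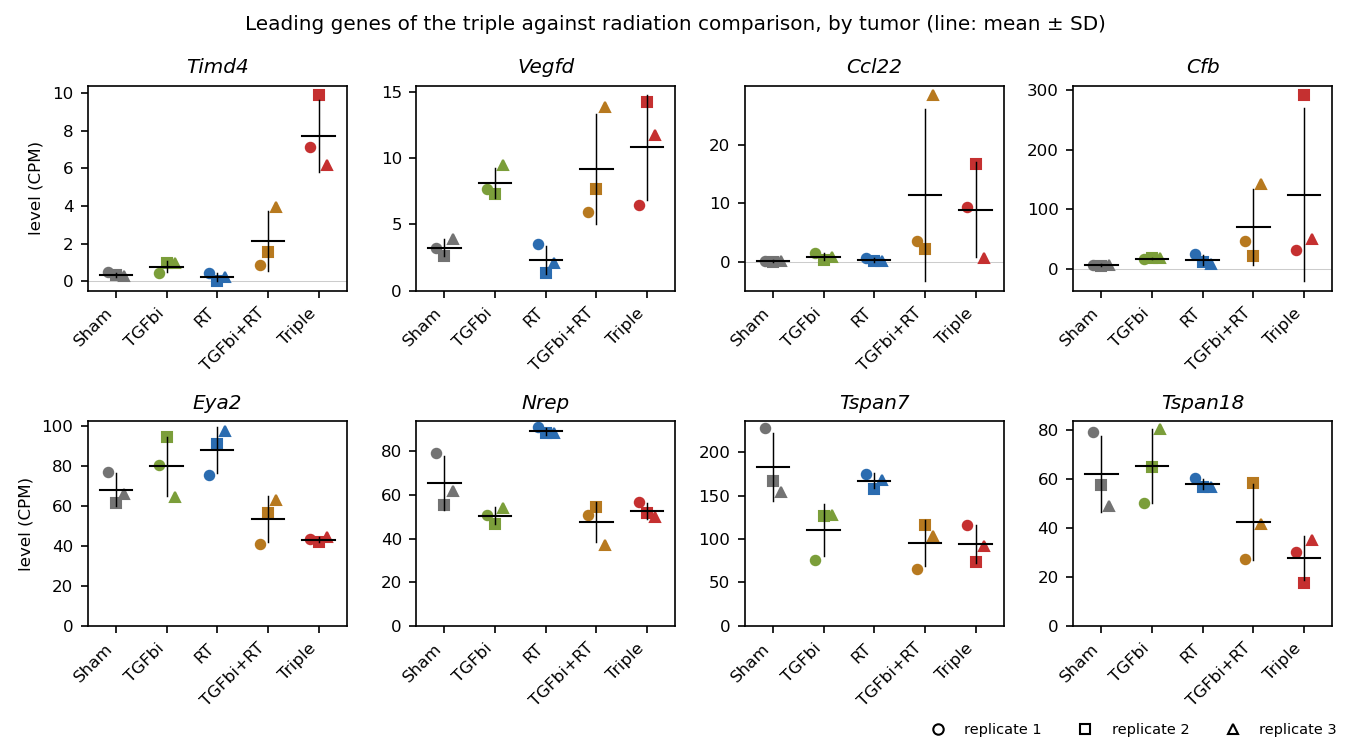
Level in CPM (vertical axis) of 8 genes in every tumor of the 5 treatment groups (horizontal axis); the symbol gives the replicate number, the horizontal line the mean and the vertical line the SD of 3 tumors. Timd4 stood at 6.16 to 9.87 CPM in the triple tumors and at most 0.437 CPM in the RT tumors, Eya2 at 42.0 to 44.4 CPM against 75.5 to 97.9 CPM, and Ccl22 and Cfb spread widely within the triple and TGFbi+RT groups.

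Class II antigen presentation genes had higher means in the triple than in the RT tumors, with the highest levels in triple replicate 2. Of the 10 listed genes, 8 passed the filter (H2-Oa and H2-Ob, with 18 and 87 counts over the triple and 4 and 14 over the RT tumors, did not). All 8 had a higher mean in the triple tumors, all 8 had an unadjusted p under 0.05 against 4.65% of all genes, and in 7 the groups did not overlap against 3.87% of all genes. The median log2 fold change was 3.92, beside -0.0043 over all genes. Since members passed the filter partly through the tumors in which they are high, these counts are a description of the tested members.

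H2-Aa, the alpha chain of I-A, was counted at 31.8, 381 and 14.9 CPM in the triple and 13.2, 7.40 and 3.58 CPM in the RT tumors. The lowest triple tumor was just above the highest RT tumor, and triple replicate 2 was far above the other 5. H2-Eb1, the beta chain of I-E, gave 29.3, 365 and 17.0 CPM against 11.0, 7.46 and 2.39 CPM, and its partner H2-Ea gave 47.3, 543 and 26.3 CPM against 17.7, 10.0 and 4.57 CPM. Cd74, the invariant chain that escorts class II molecules, gave 115, 1441 and 67.7 CPM against 52.7, 35.1 and 10.9 CPM. The log2 fold changes were 4.14 ± 1.24 (H2-Aa), 4.29 ± 1.27 (H2-Eb1), 4.25 ± 1.23 (H2-Ea) and 4.04 ± 1.25 (Cd74), each with an edgeR adjusted p of 0.812.

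Among the peptide-loading genes, H2-DMb2 gave 4.33, 17.5 and 2.03 CPM against 1.25, 0.271 and 0.211 CPM, and H2-DMb1 gave 2.67, 38.3 and 2.36 CPM against 2.18, 1.02 and 0.141 CPM; both are so alike that reads may be split between them. In H2-DMa the groups overlapped, at 8.94, 66.2 and 9.03 CPM against 9.04, 6.31 and 5.27 CPM. Ciita gave 16.6, 109 and 5.40 CPM against 5.36, 3.12 and 0.913 CPM, a log2 fold change of 3.80 ± 1.19. In Ciita triple replicate 3 and RT replicate 1 were almost level. Without triple replicate 2 the list median was 1.54, with H2-Aa at 1.53, Cd74 at 1.47, H2-Ea at 1.77 and Ciita at 1.81; leaving out any of the other 5 tumors gave medians of 3.36 to 4.59, and the A2304 libraries alone 4.35. Reads from BALB/c tumors were aligned to a C57BL/6J genome, which carries another MHC haplotype, so the level of 1 MHC gene against another is uncertain.

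**Figure D2:**
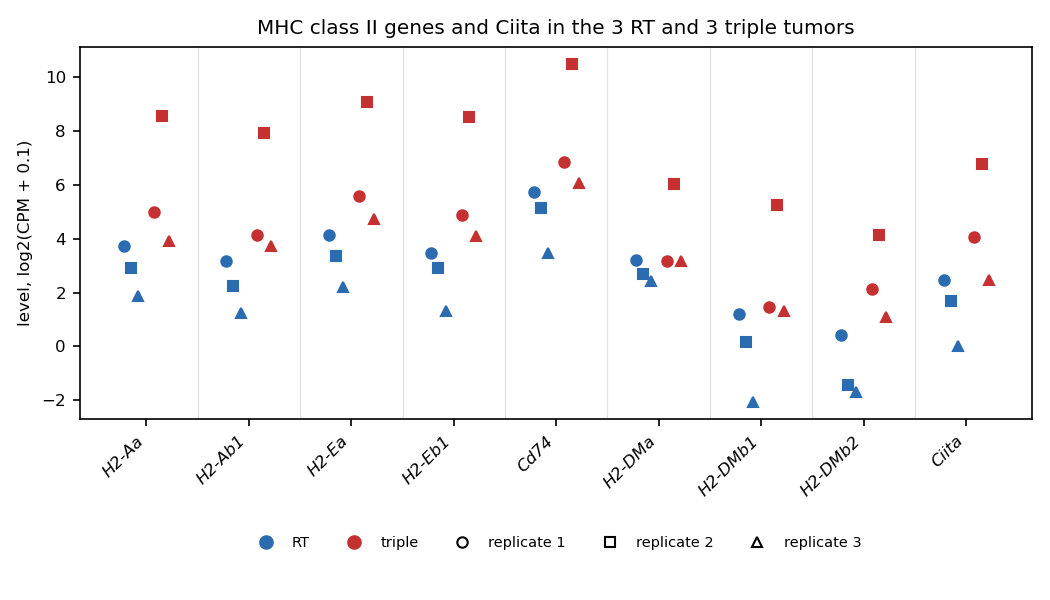
Level of 8 MHC class II genes and of Ciita as log2(CPM + 0.1) (vertical axis) in the 3 RT (blue) and 3 triple (red) tumors, with a symbol for each replicate number. Triple replicate 2 is the highest for every gene, the other triple tumors lie above the RT tumors in all genes except H2-DMa, and H2-Aa spans 3.58 to 381 CPM. In Ciita triple replicate 3 and RT replicate 1 are almost level.

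Interferon target genes were higher in the triple mean throughout, and mostly through 1 tumor. Of the 27 interferon gamma-induced genes tested, 27 had a log2 fold change above 0 (49.4% of all genes), 17 an unadjusted p under 0.05 (4.65% of all genes) and 10 no overlap (3.87% of all genes), with a median of 3.48. Cxcl9, a chemokine for T cells, gave 4.47, 323 and 6.33 CPM against 2.18, 0.814 and 1.34 CPM, a log2 fold change of 6.25 ± 2.08. Iigp1, an interferon-induced GTPase, gave 11.1, 428 and 17.2 CPM against 11.2, 4.21 and 2.18 CPM, so triple replicate 1 was level with RT replicate 1. All 32 type I interferon response genes were above 0 too, 23 with an unadjusted p under 0.05 (all genes 4.65%), but only 3 without overlap (all genes 3.87%), with a median of 2.25. Oas3, an antiviral synthetase, gave 5.20, 102 and 11.5 CPM against 6.61, 1.63 and 1.48 CPM. Irf7, a transcription factor of the interferon response, gave 16.5, 231 and 29.5 CPM against 18.6, 8.14 and 7.31 CPM. In the class I presentation list 21 of 22 genes were above 0, with a median of 1.22, 7 at an unadjusted p under 0.05 (all genes 4.65%) and 2 without overlap (all genes 3.87%). H2-D1, which encodes a class I heavy chain, gave 79.4, 468 and 90.7 CPM against 95.9, 67.7 and 37.9 CPM. Without triple replicate 2 the medians of the 3 lists were 0.80 (interferon gamma), 0.63 (type I) and 0.17 (class I).

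T cell genes were high in triple replicates 1 and 2 and low in triple replicate 3. Cd3e, a chain of the T cell receptor complex, gave 9.20, 22.3 and 0.253 CPM in the triple and 1.68, 0.0679 and 0 CPM in the RT tumors. Cd8a, the coreceptor of cytotoxic T cells, gave 6.74, 13.3 and 0.253 CPM against 0.499, 0 and 0.0703 CPM, and Trac, the receptor's alpha chain constant region, 8.67, 15.0 and 0.507 CPM against 0.686, 0.407 and 0.703 CPM. In each of these 3 genes triple replicate 3 lay within the range of the RT tumors. Over the T cell list 23 of 24 tested genes were above 0, 19 had an unadjusted p under 0.05 (4.65% of all genes) and 4 did not overlap (3.87% of all genes), with a median of 3.64. That median was 2.53 without triple replicate 2 and 2.40 among the A2304 libraries. Cd2 (3.53, 9.26 and 0.507 CPM against 0.374, 0.136 and 0 CPM) had the smallest unadjusted p of the list, 0.00215 by edgeR. In bulk RNA fewer cells of a type and less RNA per cell cannot be told apart.

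Among cytotoxic genes, Gzmb, a granule protease, was counted at 0.267, 21.2 and 0.0844 CPM in the triple and 0.686, 0 and 0 CPM in the RT tumors, so triple replicate 2 alone was above RT replicate 1. Prf1, which encodes perforin, gave 1.53, 21.0 and 0.675 CPM against 0.561, 0.136 and 0 CPM, and Ccl5 gave 2.60, 28.3 and 0.675 CPM against 0.624, 0.543 and 0.632 CPM. The NK and T cell receptor gene Klrk1 gave 1.87, 34.0 and 0.844 CPM against 0.561, 0.339 and 0.0703 CPM. In Prf1, Ccl5 and Klrk1 the groups did not overlap, but triple replicate 3 was close to the highest RT tumor. Ifng itself, with 25 counts over the triple and 2 over the RT tumors, was below the filter and was not tested. The 9 cytotoxic genes tested, of 19 listed, had a median of 4.12, which was 0.18 without triple replicate 2, 1.81 among the A2304 libraries and 3.16 with no filter; the 7 NK receptor genes tested, of 17 listed, had a median of 3.90, which was 0.27 without that tumor. As in the class II list, members passed the filter partly through the tumors in which they are high, so these medians describe the tested members and not the lists.

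Checkpoint genes were highest in triple replicate 2 in the examples given. Cd274, which encodes PD-L1, the target of the antibody, gave 5.74, 123 and 9.79 CPM in the triple and 6.05, 2.44 and 2.39 CPM in the RT tumors, a log2 fold change of 3.66 ± 1.30 that was 1.09 without triple replicate 2. Its receptor gene Pdcd1 gave 0.734, 7.22 and 0.0844 CPM against 0.125, 0.204 and 0.0703 CPM. Ctla4, a brake on T cell activation, gave 1.33, 12.1 and 0.169 CPM against 0.249, 0.407 and 0.0703 CPM. In Cd274 triple replicate 1 was just below RT replicate 1, and in Pdcd1 and Ctla4 triple replicate 3 was within the RT range. Of the 21 checkpoint and regulatory T cell genes tested 19 were above 0, 11 had an unadjusted p under 0.05 (all genes 4.65%) and 3 did not overlap (all genes 3.87%); the median was 2.07, and 0.83 without triple replicate 2.

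The B cell genes named here were high in triple replicate 1, in triple replicate 2 or in both. Ighd, the IgD heavy chain of naive B cells, gave 21.7, 1.02 and 0.169 CPM against 1.31, 0.0679 and 0.141 CPM, and Fcer2a, the IgE receptor CD23 of naive B cells, 12.8, 1.02 and 0.591 CPM against 1.37, 0.543 and 0.492 CPM. Ighm was high in 2 triple tumors, at 64.8, 50.3 and 7.43 CPM against 12.0, 3.53 and 1.90 CPM, and Cd22, an inhibitory receptor of B cells, was highest in triple replicate 2, at 21.7, 59.5 and 4.47 CPM against 8.67, 4.34 and 1.48 CPM. Of 10 genes tested 9 were above 0, 6 had an unadjusted p under 0.05 (4.65% of all genes) and 0 were free of overlap; the median of 2.43 was 0.012 without triple replicate 1. Lymph node tissue in the sample as a source was not tested.

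Antigen-presenting and other myeloid genes were partly shared by RT replicate 1. Flt3, a growth factor receptor of dendritic cells, gave 2.47, 4.63 and 1.35 CPM against 0.561, 0.407 and 0.141 CPM without overlap, and Ccr7, which guides mature dendritic cells and naive T cells, 8.07, 12.3 and 0.844 CPM against 1.62, 0.882 and 1.05 CPM with overlap. Fcgr1, a macrophage Fc receptor, gave 5.14, 55.9 and 13.2 CPM against 11.0, 3.33 and 1.62 CPM. Although 23 of 24 macrophage genes were above 0, 0 were free of overlap; the list score, in log2 units around the mean of the 6 tumors, was 0.77 in RT replicate 1 and -0.62 in triple replicate 1. The median was 1.53, and 0.34 without triple replicate 2. Timd4 therefore differed from the general macrophage genes in the order of the tumors. The median of the 18 dendritic cell genes tested was 2.24, with 11 at an unadjusted p under 0.05 (4.65% of all genes) and 4 without overlap (3.87% of all genes), and 0.49 without triple replicate 2. Ccl8, a monocyte chemokine, gave 20.5, 412 and 95.4 CPM against 32.1, 7.94 and 2.39 CPM.

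**Figure D3:**
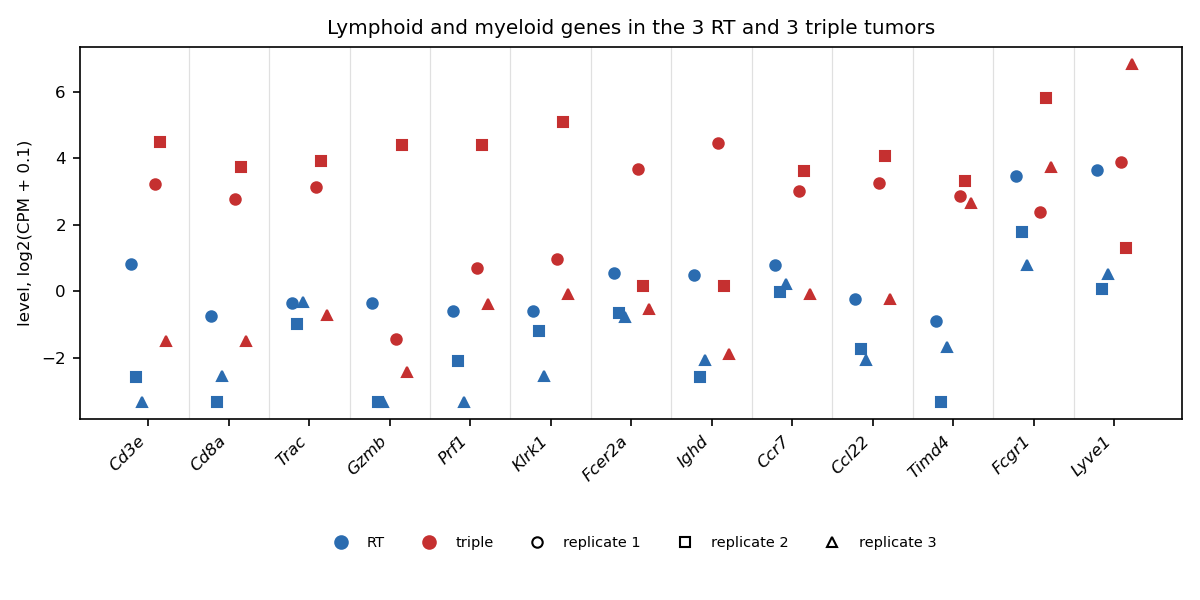
Level of 13 immune and lymphatic genes as log2(CPM + 0.1) (vertical axis) in the 3 RT (blue) and 3 triple (red) tumors, with a symbol for each replicate number. Cd3e, Cd8a and Trac are high in triple replicates 1 and 2, Fcer2a and Ighd in triple replicate 1, Gzmb in triple replicate 2 and Lyve1 in triple replicate 3, whereas Timd4 is high in all 3.

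Complement and resting fibroblast genes were higher in the triple mean as well. C3, the central complement component, gave 172, 1418 and 244 CPM in the triple and 74.2, 29.2 and 15.9 CPM in the RT tumors, and C4b gave 69.7, 444 and 170 CPM against 63.6, 13.5 and 4.64 CPM. Cd55, which shields cells from complement, gave 10.0, 16.9 and 16.1 CPM against 5.92, 2.58 and 2.32 CPM. Over 18 complement genes 17 were above 0, 9 had an unadjusted p under 0.05 (4.65% of all genes) and 5 did not overlap (3.87% of all genes); the median of 2.04 was 0.97 without triple replicate 2 and 3.12 without RT replicate 1. Dpp4, a marker of resting adventitial fibroblasts, gave 6.74, 11.2 and 19.2 CPM against 2.49, 0.679 and 0.141 CPM. Efemp1, a fibulin of the same cells, gave 8.54, 46.4 and 25.7 CPM against 3.87, 0.339 and 0 CPM, and Clec3b gave 3.27, 12.7 and 8.27 CPM against 1.93, 0 and 0 CPM. Every one of the 14 resting fibroblast genes was above 0, 7 without overlap (all genes 3.87%) and 6 at an unadjusted p under 0.05 (all genes 4.65%); their median was 1.89, at least 1.39 with any 1 tumor left out, and 3.80 without RT replicate 1.

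Matrix genes of activated fibroblasts, by contrast, did not separate the groups. Fn1, fibronectin, gave 731, 2568 and 2599 CPM in the triple and 2033, 614 and 608 CPM in the RT tumors, so RT replicate 1 sat with triple replicates 2 and 3, and triple replicate 1 with the other RT tumors. In the matrix list 22 of 25 genes were above 0, but 0 had an unadjusted p under 0.05 and 0 were free of overlap. Its median of 0.43 was 1.94 without RT replicate 1 and 0.017 without RT replicate 3, so it rests on single tumors. Adipocyte genes, of which 14 of 14 were above 0 with a median of 1.90, were high in triple replicates 1 and 2: Cfd, adipsin, gave 24.3, 40.4 and 5.91 CPM against 3.93, 0.136 and 0 CPM, and Plin1, a lipid droplet coat protein, 9.07, 8.58 and 1.10 CPM against 2.06, 0.0679 and 0.0703 CPM. Without RT replicate 1 the adipocyte median was 4.66. Mammary fat in the sample as a source was not tested. Lyve1, a marker of lymphatic vessels and of some macrophages, gave 14.9, 2.38 and 115 CPM against 12.5, 0.950 and 1.34 CPM and was high in triple replicate 3.

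Other cell types that a tumor sample can hold gave mixed values, to be read against the 3.87% of all genes that were higher without overlap. Mast cell and eosinophil genes were above 0 in 7 of 9, 4 without overlap, with a median of 2.35 at low levels: Tpsb2, a mast cell tryptase, gave 0.734, 1.91 and 1.60 CPM against 0.499, 0 and 0 CPM. Monocyte and neutrophil genes were above 0 in 16 of 17, 2 without overlap, with a median of 1.92 that was 1.20 without triple replicate 2 and 3.41 without RT replicate 1. Endothelial genes (17 of 20 above 0, median 0.31), pericyte and smooth muscle genes (11 of 14, 0.18), erythrocyte genes (1 of 5, -0.060), skeletal muscle genes (4 of 5, 0.20) and keratinocyte genes (6 of 9, 0.59) had 0, 1, 0, 1 and 1 members without overlap. Nerve genes were above 0 in 4 of 7, with a median of 0.19 and values from -0.52 to 3.96. Of these genes 1 was higher and 1 was lower without overlap (4.23% of all genes were lower without overlap). The part of these cell types in the other differences was not tested.

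Direct targets of TGF beta, the pathway that the inhibitor blocks, differed little between the groups. Of 21 tested target and feedback genes 15 were above 0, 0 had an unadjusted p under 0.05 and 0 were free of overlap, with a median of 0.13. Smad7, the feedback inhibitor of the pathway, gave 22.3, 30.4 and 23.6 CPM in the triple and 26.4, 22.5 and 24.5 CPM in the RT tumors. Pmepa1, another feedback gene, gave 88.4, 141 and 115 CPM against 180, 126 and 186 CPM, a log2 fold change of -0.51 ± 0.42. Among ligands and receptors Tgfb1 gave 48.0, 117 and 81.8 CPM against 80.3, 36.3 and 38.8 CPM, and Tgfbr1, the kinase receptor of the pathway, 58.2, 167 and 61.7 CPM against 91.3, 69.6 and 64.5 CPM. Smad4, the shared partner of the Smads, was slightly lower in every triple tumor (87.1, 83.7 and 81.0 CPM against 92.9, 89.4 and 96.3 CPM, -0.15 ± 0.10). Of the 21 ligand, receptor and latency genes 12 were above 0, with a median of 0.12. Of these, 1 was higher at an unadjusted p under 0.05 (4.65% of all genes). Without overlap, 0 were higher (3.87% of all genes) and Smad4 alone was lower (4.23% of all genes). The highest log2 fold change of that list was 1.71, for Nrros, and 1.09 to 2.68 with any 1 tumor left out. Of 14 BMP pathway genes 8 were above 0, with a median of 0.29, 0 at an unadjusted p under 0.05 and 0 without overlap. No member of these lists had an adjusted p under 0.05, which does not show that the pathway acted alike.

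Proliferation genes were lower in the triple mean by a small amount that was even over the genes but not over the tumors. All 24 G2 and M phase genes were below 0 (50.6% of all genes), with values from -0.47 to -0.21 and a median of -0.33. Of these, 0 had an unadjusted p under 0.05 (1.12% of all genes were lower at that p). Likewise, 0 were lower without overlap (4.23% of all genes). The list scores were 0.19, -0.63 and -0.077 in the triple and -0.15, 0.34 and 0.34 in the RT tumors. Triple replicate 1 thus lay above RT replicate 1. Mki67, a proliferation marker, gave 746, 489 and 627 CPM in the triple and 628, 780 and 980 CPM in the RT tumors, with triple replicate 2 the lowest. Of the S phase genes 23 of 24 were below 0, with a median of -0.25, and of the double-strand break repair genes 26 of 33, with a median of -0.16. Without triple replicate 2 the medians were -0.12 (G2 and M), -0.038 (S) and -0.071 (repair), and without triple replicate 1 they were -0.52, -0.45 and -0.33. Nuclear respiratory chain genes were below 0 in 26 of 28, with a median of -0.14, and 3 were lower without overlap (4.23% of all genes). Among them was Ndufb5, a complex I subunit (40.1, 32.4 and 40.4 CPM against 40.5, 49.3 and 47.8 CPM), with triple replicate 3 and RT replicate 1 almost level.

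Genes of the p53 pathway, in tumors null for Trp53, were above 0 in 16 of 24, with a median of 0.17, and 4 were higher at an unadjusted p under 0.05 (4.65% of all genes), none of them without overlap. Fas, a death receptor, and Eda2r, a receptor of the same family, had log2 fold changes of 2.00 ± 0.78 and 2.28 ± 0.89, and in both triple replicate 2 (14.4 and 15.7 CPM) was far above the other 5 tumors. Cdkn1a, the cell cycle inhibitor p21, gave 21.8, 125 and 40.4 CPM against 34.9, 14.9 and 15.0 CPM, again highest in triple replicate 2. The immediate early genes had a median of 0.72, with 17 of 20 above 0; Klf2 gave 15.3, 41.5 and 28.7 CPM against 16.8, 4.34 and 2.11 CPM. Hypoxia and glycolysis genes had a median of 0.13 that was -0.45 without triple replicate 3. Ndrg1, a hypoxia-induced gene, gave 43.1, 81.7 and 392 CPM against 114, 57.3 and 76.1 CPM, and that tumor was also the lowest for luminal genes, with Krt8, a keratin of simple epithelia, at 12.6, 28.3 and 0.929 CPM against 8.17, 13.8 and 5.55 CPM. Luminal genes as a list had a median of -0.18, with 9 of 21 above 0, 12 below 0 and values from -0.82 to 3.54. Without overlap, 3 were higher (3.87% of all genes) and 1 was lower (4.23% of all genes). Epcam had a log2 fold change of -0.36, with overlap. The 3 higher ones were Krt19, a luminal keratin (15.5, 8.51 and 2.62 CPM against 1.50, 0.407 and 0.351 CPM), and the hormone receptor genes Esr1 (11.9, 18.2 and 20.4 CPM against 11.6, 10.8 and 6.82 CPM) and Pgr (8.47, 8.44 and 3.80 CPM against 1.87, 0.611 and 1.90 CPM). In Esr1 triple replicate 1 and RT replicate 1 were almost level. In the basal list 2 of 20 genes were lower without overlap (4.23% of all genes). These were Sox10, a transcription factor of basal and neural crest cells (325, 186 and 232 CPM against 331, 353 and 380 CPM), and Itga6, an integrin of basal cells (550, 363 and 466 CPM against 621, 714 and 931 CPM). The list median was -0.028. In Sox10 triple replicate 1 was close to RT replicate 1.

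**Figure D4:**
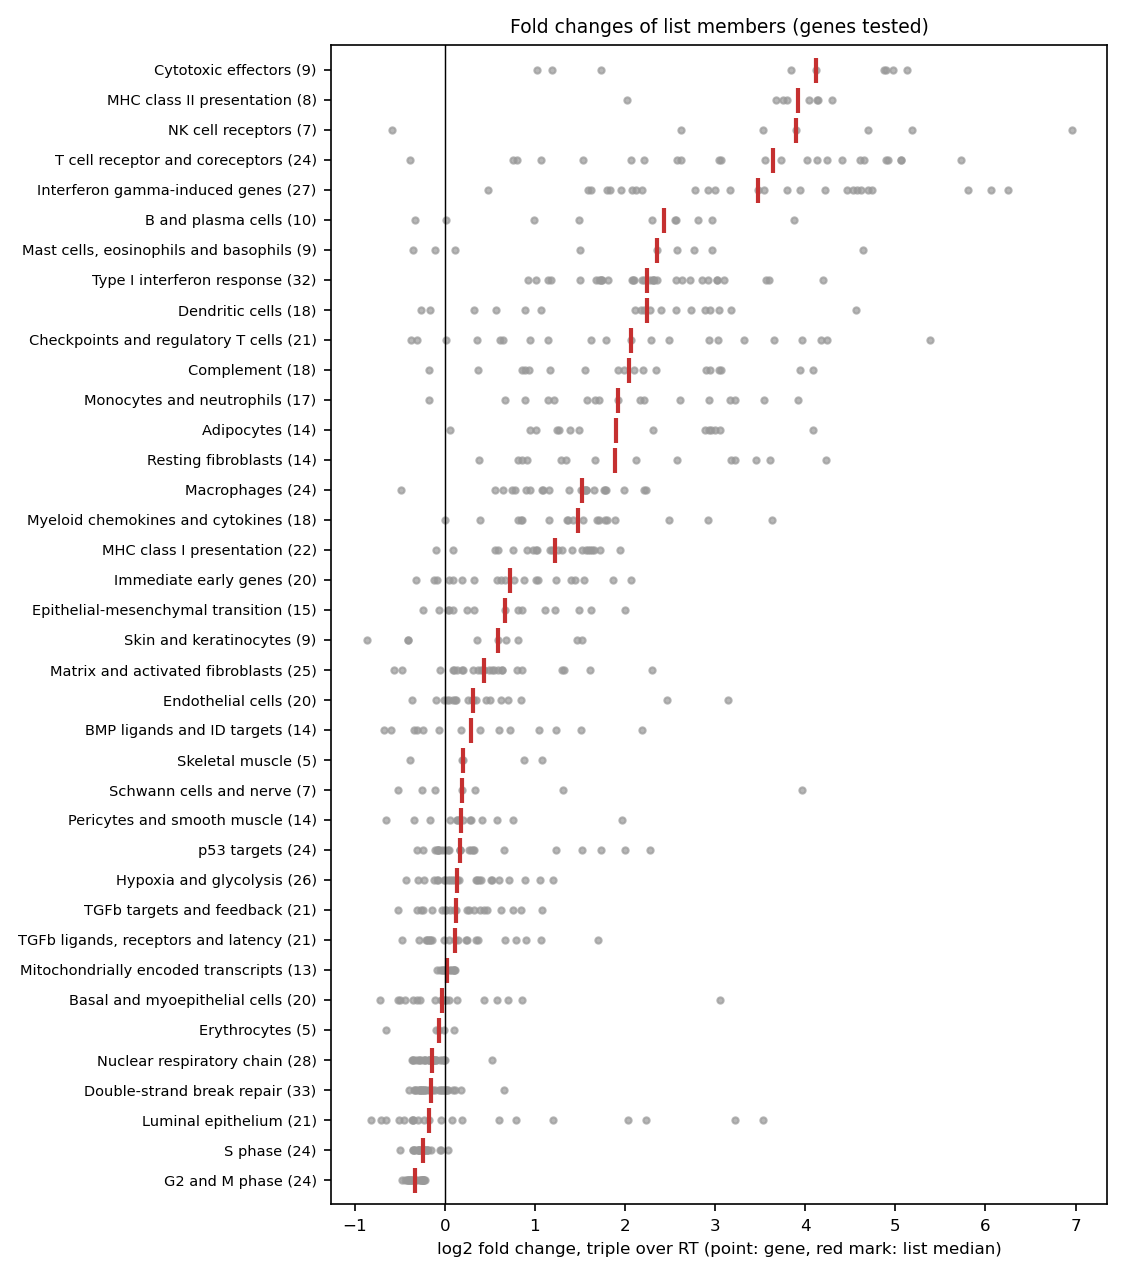
Log2 fold change of triple over RT (horizontal axis) for every tested member of the 38 gene lists (grey points), with the list median in red and the number of genes tested in brackets. Medians run from -0.33 (G2 and M phase) to 4.12 (cytotoxic effectors); immune lists spread over several log2 units, and the cell cycle and respiratory lists lie in a narrow band just below 0.

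Across the 38 lists, the score of a tumor, that is, the average of its members' log2 CPM after each gene's mean in these 6 tumors was subtracted, was highest in triple replicate 2 for 23 lists, in triple replicate 1 for 4, in triple replicate 3 for 3 and in an RT tumor for 8. RT replicate 3 was the lowest tumor in 24 lists. For the class II list the scores were 0.58, 3.83 and -0.15 in the triple and -0.45, -1.32 and -2.49 in the RT tumors. The T cell scores were 1.73, 2.77 and -1.19 against -0.36, -1.40 and -1.55, so triple replicate 3 was within the RT range. Resting fibroblast scores were 0.18, 1.97 and 1.79 in the triple tumors, 0.64 in RT replicate 1 and -2.57 in RT replicate 3, so RT replicate 1 lay above triple replicate 1.

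**Figure D5:**
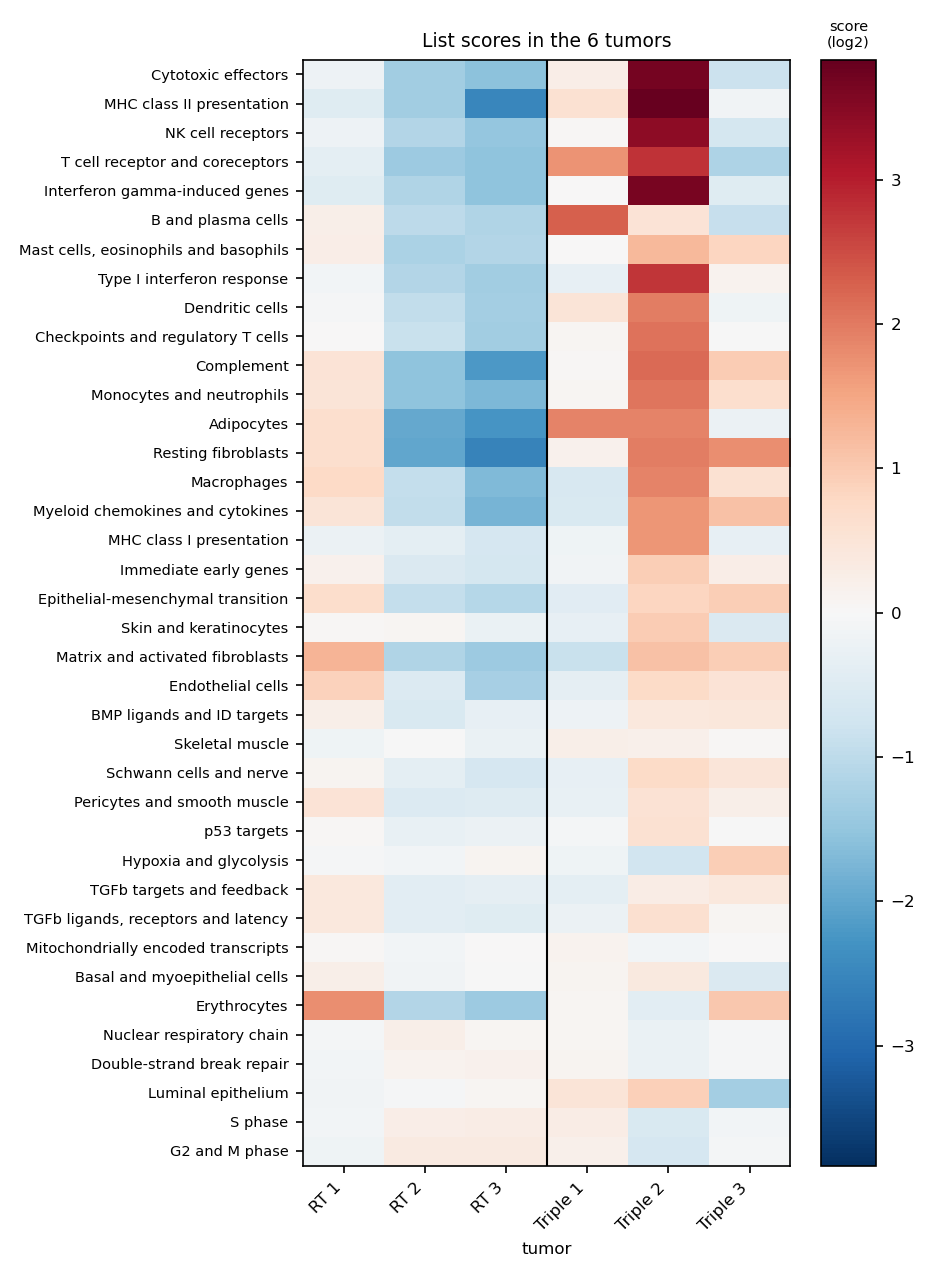
List scores (colour, log2 units; rows are the 38 lists ordered by median fold change, columns the 6 tumors). Triple replicate 2 is the highest tumor in 23 lists, the column of triple replicate 1 is high for B cell, T cell and adipocyte lists, and RT replicate 1 is high for matrix, endothelial and erythrocyte lists.

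Triple tumors were also compared with tumors given inhibitor plus radiation, in the same fit. All TGFbi+RT, Sham and TGFbi libraries are listed under the code A2301, whereas triple replicates 2 and 3 and all RT libraries carry A2304. The column names of TGFbi+RT replicate 3 and TGFbi replicate 3 begin with "resub" and show no code, so their code is less certain. As listed, TGFbi+RT against RT and the code cannot be told apart, and triple against TGFbi+RT largely shares that limit. TGFbi+RT replicate 3 stood apart from its group, at 449 CPM of Cxcl9 against 7.59 and 5.59 CPM. edgeR called 0 genes (0%), with 318 at an unadjusted p under 0.05 (1.99% of genes, 0.681% higher and 1.3% lower), limma-voom called 0, and DESeq2 called 1, Phxr4, lower in the triple tumors (named after its value was seen). The unadjusted count was 727 without TGFbi+RT replicate 3, 618 without TGFbi+RT replicate 1 and 541 without triple replicate 1. TGFbi+RT against RT shares the RT tumors with triple against RT, so the values are only set side by side. For Timd4 they were 3.22 ± 0.76 and 5.08 ± 0.78 log2 units, and triple and TGFbi+RT differed by 1.86 ± 0.65 (edgeR unadjusted p = 0.0132). For Eya2 they were -0.72 ± 0.18 and -1.03 ± 0.18, and for H2-Aa 3.06 ± 1.19 and 4.14 ± 1.24. For Ccl22 they were 4.91 ± 1.23 and 4.57 ± 1.21. Cd8a differed by 3.03 ± 1.30 between triple and TGFbi+RT tumors (edgeR unadjusted p = 0.0406), where TGFbi+RT tumors held 0.298, 0.0789 and 2.13 CPM, against 6.74, 13.3 and 0.253 CPM in the triple tumors. List medians of triple over TGFbi+RT were 0.99 for class II, 0.95 for T cells, 1.71 for B cells, 0.90 for resting fibroblasts, -0.11 for cytotoxic genes and -0.53 for interferon gamma-induced genes.

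Whether the difference between triple and RT was other than that between inhibitor and sham without radiation was tested as an interaction, which shares no tumors between its 2 sides. Sham and TGFbi libraries are all listed under the code A2301, although the column name of TGFbi replicate 3 shows no code. The triple and RT libraries, other than triple replicate 1, carry the code A2304. A part of the code therefore cannot be told apart from the interaction. Of these groups the triple group alone received the antibody to PD-L1, so the interaction holds the part of the antibody as well as that of radiation. Those parts cannot be told apart here. edgeR called 0 genes (0%), with 619 at an unadjusted p under 0.05 (3.86% of genes, 2.5% higher and 1.37% lower), limma-voom called 0 and DESeq2 called 9, of which 6 were higher, and Eya2 was among the 3 that were lower. The unadjusted count ranged from 369 without RT replicate 3 to 1145 without triple replicate 1, and was also moved by over 1.5 times without RT replicate 1 (1022), RT replicate 2 (397), TGFbi replicate 1 (955) or TGFbi replicate 2 (400). The interaction was -1.25 ± 0.25 log2 units for Eya2 (edgeR unadjusted p = 0.00028), 3.95 ± 1.07 for Timd4 (edgeR unadjusted p = 0.0027), 0.89 ± 0.57 for Vegfd and -0.38 ± 0.22 for Nrep. In both of these genes the TGFbi tumors did not overlap the Sham tumors: Vegfd stood at 7.34 to 9.46 against 2.62 to 3.89 CPM, and Nrep at 46.4 to 54.0 against 55.3 to 78.9 CPM.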

How the data were processed

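Total RNA of frozen tumors was depleted of ribosomal RNA and sequenced, 1 library per tumor, per the labels' protocols. The authors deposited whole-number counts per Entrez gene (27179 genes) without normalization, with the build GRCm38 per the submitters' processing notes; a deposited annotation table adds other values, the gene lengths and exon positions. The aligner's settings and strandedness are not given in the sources used here, so overlapping genes cannot be told apart. Columns were matched to samples by the names in the labels. Symbols came from a RefSeq gene table (GRCm38.p6), which matched 25275 genes; promoters came from RefSeq.

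Counts of all 15 tumors (11002869 to 17184023 per library; the internal reference library was left out) were filtered by filterByExpr, scaled by TMM (0.919 to 1.05) and fitted with edgeR 4.0.16 (quasi-likelihood, 1 mean per group, 10 residual degrees of freedom, common coefficient of variation 0.364) in R 4.3.3, with p-values of the 16017 genes adjusted by Benjamini-Hochberg and called under 0.05. SE is the log2 fold change divided by the square root of F. DESeq2 1.42.0, limma-voom (limma 3.58.1), DESeq2 size factors, other filters, only the groups compared, the library code, a replicate block and leaving out tumors were alternatives. The code was tested on simulated data. Pairs of tumors within a group differed far beyond counting error (chi-square per gene 14.0 to 129), so none was a library deposited again.

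Named genes were up to 12 per direction (by size among called genes, then by smallest unadjusted p among genes without overlap and averaging at least 1 log2 CPM), from each of 38 lists the 4 members or fewer of smallest unadjusted p, and a fixed set of pathway and marker genes. H2-Ab1, H2-DMa, H2-DMb1, H2-Oa, H2-Ob, Slc2a1 and Phxr4 are outside that rule and were chosen after their values were seen. The members, lists and tests were chosen with earlier results of these data known. Lists are described by counts and medians, without a test of the list. Some genes are not reported here.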

Additional observations from a re-analysis of the deposited data

How the results depend on the processing

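The counts of called genes were 0 under every alternative except DESeq2, which called 3 (triple against RT), 1 (triple against TGFbi+RT) and 9 (interaction), so leaving out any 1 tumor gave 0 to 0 calls in each of the 3 comparisons. Unadjusted counts for triple against RT, 925 in the fit reported, ranged from 315 to 2087 when 1 of the 6 tumors was left out, and were 918 with DESeq2 size factors, 1285 with no filter, 560 with only the groups compared and 1992 with the library code as a term. For triple against TGFbi+RT (318) they ranged from 259 to 727 with 1 tumor left out and were 195 with only the groups compared. For the interaction (619) they ranged from 369 to 1145 and were 1111 with the code as a term. As listed, only the triple group holds both codes. For triple against RT, the code as a term and the A2304 libraries alone are thus close to leaving out triple replicate 1. These alternatives are not separate checks. The deviations of same-numbered tumors from their group means had correlations of -0.58, -0.30 and 0.14, against -0.47 to 0.54 for other pairs. With 3 tumors in a group the deviations depend on each other, so these values cannot show whether the replicate numbers pair. A replicate block gave 0 calls and 747 genes at an unadjusted p under 0.05. Of 155 named genes 144 kept their sign in every alternative in which they were followed, and 0 passed the threshold of edgeR in any of those. Their signs were not followed under the DESeq2 test, limma-voom or the filter of at least 10 counts in 3 tumors. Nor were they followed with only the groups compared, or without TGFbi+RT replicate 3 and triple replicate 2 together. The log2 fold change of Krt5 was -0.0023 with no filter, -0.082 with the library code as a term, -0.087 in the A2304 libraries and -0.088 to -0.013 without triple replicate 1, RT replicate 1 or RT replicate 3 (-0.044 without the last). Smad7 was at -0.0043 without RT replicate 2. Without triple replicate 2 the values were -0.36 for Gzmb, -0.031 for Aif1, -0.27 for Mmp2, -0.096 for Smad7, -0.33 for Tgfbr1, -0.43 for Krt8 and -0.071 for Fosb. Without triple replicate 3 they were -0.15 for Trp53, -0.41 for Ndrg1 and -0.19 for Slc2a1. The highest values with 1 tumor left out were 9.59 for Gzmb, 2.76 for Aif1, 2.34 for Mmp2 and 3.37 for Fosb (each without RT replicate 1), 0.61 for Tgfbr1 and 1.51 for Ndrg1 (without triple replicate 1), 1.15 for Krt8 (without triple replicate 3), 0.083 for Krt5 (without RT replicate 2), and 0.26 for Trp53 and 0.66 for Slc2a1 (without triple replicate 2). The cause was not tested. Many immune genes had under 1 CPM in RT tumors, so their fold changes rest on few counts.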
